A study of Komagataella phaffii with 102 samples.

Results

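The comparison described here set GS115 cultures moved to methanol against GS115 cultures kept in glycerol for the same total time. It rested on 5 libraries chosen by their strain and condition labels, 3 of the 38 methanol libraries of the study (replicates A, B and C) and 2 of its 28 libraries at 48 h glycerol (replicates B and C), while a further 36 libraries came from 24 h glycerol. GS115 is a histidine auxotroph of the methylotrophic yeast Komagataella phaffii, obtained by nitrosoguanidine mutagenesis of the strain Y-11430, and it carries a changed codon in HIS4, a gene of histidine synthesis. No transgene was present in any strain used here. All GS115 cultures were first grown for 24 h in rich buffered medium with 4% (v/v) glycerol. The methanol cultures were then transferred for a further 24 h to the same kind of medium with 1.5% (v/v) methanol, and the 48 h glycerol cultures to fresh glycerol medium for the same time. The labels do not say which libraries came from separate inoculations, so the spread between libraries may be partly technical. Unless a smaller fit is named, p-values rest on the spread within groups over all libraries of the study. They do not rest on the spread of the 5 libraries alone. The 3 GS115 libraries at 24 h glycerol, taken before the transfer, and the methanol and 48 h glycerol libraries of Y-11430, Y-48124, X-33, Y-12729, Y-17741, YB-378, YB-4289, YB-4290 and Y-7556 served to place the response. The study describes Y-48124 as a banked X-33, but lists base changes in X-33 that Y-48124 lacks, including a change in RVB1. It found the genomes of Y-7556 and YB-4290 to be identical. Y-7556 and YB-4290 are therefore not separate genotypes, though each strain is counted separately below.

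K. phaffii can grow on methanol as its only carbon source. An alcohol oxidase in the peroxisome oxidises methanol to formaldehyde, which is either joined to a sugar phosphate by dihydroxyacetone synthase or oxidised to carbon dioxide through formaldehyde and formate dehydrogenases. Genes of this route are repressed by glycerol and induced by methanol, and their promoters are widely used to drive recombinant proteins. The identifiers in the data were paired with a name for 13 genes and with a description for 1, and the methanol pathway genes were not among them, so most genes are given by identifier, position and size. Of these 14 identifiers, 8 were read from page images of the study's supplement, 1 came from its text and 5 were assigned by the position of a listed base change, and none was checked against sequence. Positions refer to the annotation of the Y-11430 assembly that the study deposited.

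GS115 totals were 3881271 to 5527511 counts in methanol, against 5008287 counts in replicate B and 802562 counts in replicate C of 48 h glycerol. Methanol replicate C stood apart from the other GS115 methanol libraries. Across 5049 genes, log2(TPM + 1), where TPM is transcripts per 1000000, had a Pearson correlation of 0.992 between methanol replicates A and B, but of 0.953 for C with A and 0.939 for C with B. The 48 h glycerol replicates correlated at 0.981. The share of TPM that fell outside the listed genes was 16.8 to 21.5% in methanol and 25.3 to 31.9% in 48 h glycerol.

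Of 5087 genes tested, 534 were higher in methanol and 348 were lower, which is 10.5% and 6.84% of the genes tested and 17.3% together. A gene was called at an adjusted p under 0.05 (edgeR quasi-likelihood test, Benjamini-Hochberg adjustment) together with a log2 fold change of 1 or more in size. With the share of TPM outside the listed genes as a covariate, 846 genes were called. Large increases outnumbered large decreases. Called genes with a log2 fold change of 4 or more in size numbered 20 in the upward and 11 in the downward direction, and those with 5 or more numbered 15 and 3. Another scaling of the counts, by median-ratio size factors, gave 563 genes higher and 333 lower. The split moved further in fits that changed more than the scaling. With limma on log2(TPM + 1), which changes the scale and the test together, 1018 genes were called higher and 165 lower, and the median log2 fold change of all genes was 0.52, against 0.13 in the count model. Fitted to the 5 libraries alone, the count model called 414 higher and 419 lower.

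**Figure D1:**
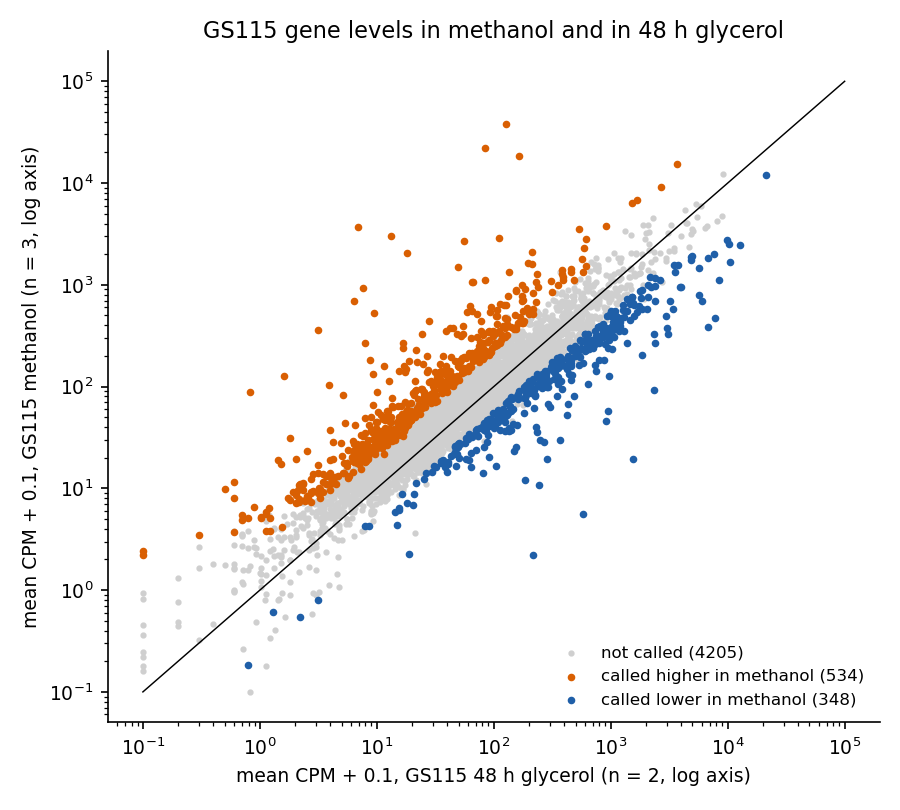
Mean level of each of the 5087 genes tested in GS115, with methanol (n = 3) on the vertical and 48 h glycerol (n = 2) on the horizontal axis, both as CPM (counts per 1000000 of the library total) plus 0.1 on log axes. Orange points are the 534 genes called higher in methanol and blue points the 348 called lower; the line marks equal levels, and the orange points of GQ67_03943, GQ67_05214 and GQ67_03941 lie far above it.

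The largest increases brought genes with low levels in glycerol to some of the highest levels in the cell. The 10 genes with the largest called increases were taken among those with all methanol libraries above both 48 h glycerol libraries, a separation that 42.4% of all genes showed in this direction, 20.8% in the opposite one and 63.2% in either. Their mean levels in methanol were 112 to 544 times those in 48 h glycerol. Several of those glycerol levels rest on few counts, since 3 counts are 3.74 CPM in 48 h glycerol replicate C, so the ratios of such genes are imprecise.

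GQ67_03943 on chromosome 3 (1628284 to 1630407, plus strand) had 36629, 35707 and 41987 CPM in methanol, against 129 and 123 CPM in 48 h glycerol. All methanol libraries were close together, and none came near the glycerol range. Its log2 fold change was 8.08 (SE 1.44, edgeR adjusted p = 8.74e-06). Per length it was the most abundant gene of the methanol libraries, with a mean of 20240 TPM in methanol against 56.8 TPM in 48 h glycerol. GQ67_03941 lay 2488 bases away on the opposite strand (1623672 to 1625795), and both genes have 707 codons. It had 16824, 15847 and 22483 CPM in methanol, against 159.9 and 167 CPM in 48 h glycerol, a log2 fold change of 6.67 (SE 1.24, edgeR adjusted p = 2.07e-05). No sequence of either gene was used here, so how reads shared between them would have been divided is not known, and their separate levels are uncertain to that extent.

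GQ67_05214 on chromosome 4 (1583138 to 1585129, minus strand, 663 codons) had 14109, 10905 and 41286 CPM in methanol, against 77.3 and 89.7 CPM in 48 h glycerol. Replicate C was far above replicates A and B, and both glycerol libraries were far below all 3. The log2 fold change was 7.95 (SE 1.03, edgeR adjusted p = 5.64e-09), and without replicate C it was 6.91. The largest fold change of all the genes named by this rule belonged to GQ67_01599 on chromosome 1 (2417932 to 2419594, minus strand, 170 codons). It had 3380.5, 3332 and 4468 CPM in methanol, against 4.99 and 8.72 CPM in 48 h glycerol, a log2 fold change of 9.10 (SE 1.57, edgeR adjusted p = 5.29e-06).

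The remaining 6 genes of this group reached lower levels in methanol. GQ67_02903, of 367 codons on chromosome 1, averaged 2989 ± 424 CPM in methanol and 13.1 ± 2.67 CPM in 48 h glycerol (SD, n = 3 and 2). GQ67_03437, of 629 codons on chromosome 3, averaged 2056 ± 212 CPM in methanol and 18.1 ± 4.39 CPM in 48 h glycerol (SD, n = 3 and 2). GQ67_00990 was the tightest of the group, with 912, 934 and 929 CPM in methanol against 6.19 and 8.72 CPM in 48 h glycerol. GQ67_04530 had 716, 736 and 651 CPM in methanol, against 4.99 and 7.48 CPM in 48 h glycerol. GQ67_04150 had 412, 462 and 214 CPM in methanol, against 3.59 and 2.49 CPM in 48 h glycerol, with replicate C lowest. GQ67_02922 was the weakest in absolute terms, at 77.6, 101 and 87.6 CPM in methanol against 0.2 and 1.25 CPM in 48 h glycerol. Its log2 fold change of 7.69 was 5.95 without 48 h glycerol replicate B and 8.43 without 48 h glycerol replicate C. All 10 genes remained called in each of the 14 alternative fits of this comparison.

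The 5 genes with the largest rise in mean CPM were GQ67_03943, GQ67_05214, GQ67_03941, GQ67_04060 and GQ67_01215. Together they held 8.97, 8.38 and 13.6% of all counts in the methanol libraries, against 0.678 and 0.668% in the 48 h glycerol libraries. The share was highest in methanol replicate C. GQ67_04060 and GQ67_01215 were already abundant in 48 h glycerol. GQ67_04060, of 365 codons on chromosome 3, had 13985, 13557 and 18393 CPM in methanol, against 3769 and 3608 CPM in 48 h glycerol and 195 to 279 CPM at 24 h glycerol. Its log2 fold change was 1.90 (SE 0.64, edgeR adjusted p = 0.0185), and the call was lost without methanol replicate C (1.57, adjusted p = 0.0668), without 48 h glycerol replicate B (1.93, adjusted p = 0.122) and without 48 h glycerol replicate C (1.88, adjusted p = 0.117). GQ67_01215, of 510 codons on chromosome 2, had 8164, 7750.1 and 11605 CPM in methanol, against 2645 and 2690.1 CPM in 48 h glycerol, a log2 fold change of 1.64 (SE 0.34, edgeR adjusted p = 0.000114).

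**Figure D2:**
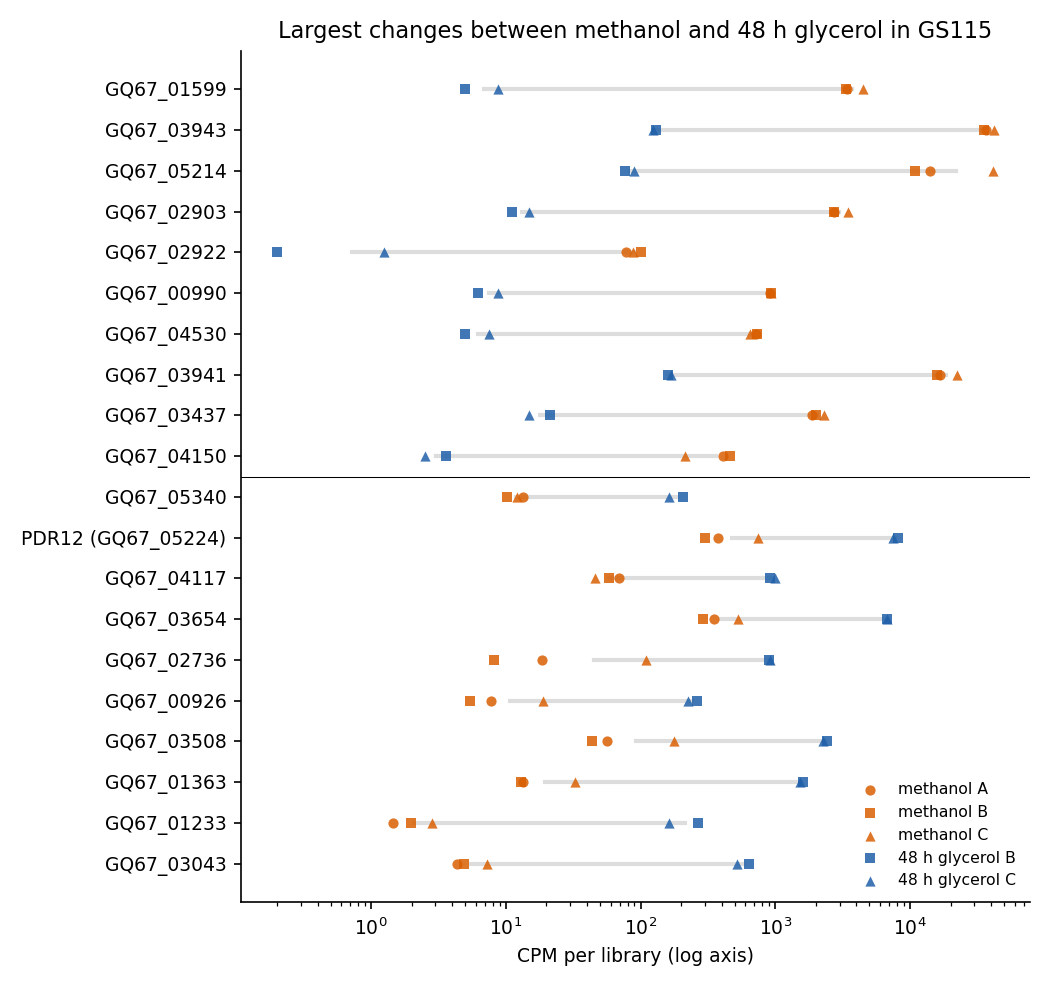
Level in each GS115 library, in CPM on a log axis, of the 10 genes with the largest called increases (upper block) and the 10 with the largest called decreases (lower block) whose libraries did not overlap. Orange marks are methanol libraries, blue marks 48 h glycerol libraries, shapes give the replicate letter and grey bars join the group means; in each row the colours are separate, and methanol replicate C lies nearest to the glycerol libraries in most rows of the lower block.

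The largest decreases included genes with a low level at 24 h glycerol as well as genes that glycerol cells kept high throughout. The 10 genes with the largest called decreases had mean levels in methanol of 0.00948 to 0.0641 times those in 48 h glycerol. GQ67_03043, of 1474 codons on chromosome 3 (88066 to 92490, minus strand), had 4.37, 4.88 and 7.21 CPM in methanol, against 635 and 523 CPM in 48 h glycerol. Its log2 fold change was -6.88 (SE 0.69, edgeR adjusted p = 2.83e-12). It had 1.71 to 3.05 CPM at 24 h glycerol, so the high level belonged to 48 h glycerol alone among the 3 GS115 conditions. GQ67_01233, of 525 codons on chromosome 2, had the same pattern, with 1.46, 1.99 and 2.83 CPM in methanol against 266 and 163 CPM in 48 h glycerol, and 0.436 to 0.763 CPM at 24 h glycerol.

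GQ67_01363 lay 31838 bases from an end of chromosome 1 and had 13.3, 12.8 and 32.5 CPM in methanol, against 1616 and 1515 CPM in 48 h glycerol. It too was low at 24 h glycerol, at 4.12 to 8.14 CPM. PDR12 (GQ67_05224, chromosome 4, 1602985 to 1607642, plus strand, 1503 codons) encodes in Saccharomyces cerevisiae a membrane pump that exports weak organic acids. It had 377, 302 and 746 CPM in methanol, against 8087 and 7511 CPM in 48 h glycerol and 59.8 to 241 CPM at 24 h glycerol. The log2 fold change was -4.16 (SE 0.51, edgeR adjusted p = 1.07e-09).

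GQ67_03508, GQ67_03654 and GQ67_02736 followed the other pattern and were high in both glycerol conditions. GQ67_03508 had 56.3, 43.4 and 176 CPM in methanol, against 2416 and 2279 CPM in 48 h glycerol and 1269 to 1581 CPM at 24 h glycerol. GQ67_03654 had 349.7, 289 and 527 CPM in methanol, against 6795 and 6717 CPM in 48 h glycerol and 2876 to 3679 CPM at 24 h glycerol. GQ67_02736 had 18.4, 8.14 and 109.8 CPM in methanol, against 894 and 917 CPM in 48 h glycerol and 565 to 722 CPM at 24 h glycerol. In these genes methanol replicate C was the highest of the methanol libraries, but it remained below all glycerol libraries. The other genes of the group were GQ67_00926, GQ67_04117 and GQ67_05340, with log2 fold changes of -4.64, -4.21 and -4.14. All 10 decreases remained called in each of the 14 alternative fits.

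By absolute amount, the 5 genes with the largest fall were PDR12, GQ67_00519, GQ67_03278, GQ67_03878 and GQ67_00554. They held 1.82, 1.59 and 2.29% of all counts in the methanol libraries, against 6.21 and 6.32% in the 48 h glycerol libraries. GQ67_00519, of 350 codons on chromosome 2, had 1588, 1112 and 4686 CPM in methanol, against 12727 and 12678 CPM in 48 h glycerol, a log2 fold change of -2.46 (SE 0.63, edgeR adjusted p = 0.00183). In a fit of the 8 GS115 libraries with the replicate letter as a block, its call was lost (-2.55, edgeR adjusted p = 0.053). GQ67_03878, of 517 codons on chromosome 3, had 1309, 1050.4 and 2722 CPM in methanol, against 10765 and 10353 CPM in 48 h glycerol, a log2 fold change of -2.76 (SE 0.42, edgeR adjusted p = 3.3e-07). GQ67_00554, of 525 codons on chromosome 2, had 2031, 1702 and 3805 CPM in methanol, against 10281 and 10063 CPM in 48 h glycerol. The fall of GQ67_03278 sat at the fold limit, with a log2 fold change of -1.02 (SE 0.37, edgeR adjusted p = 0.0302), and it was called in 6 of 14 alternative fits. Leaving out any of methanol A, methanol B, 48 h glycerol B or 48 h glycerol C ended that call, with adjusted p of 0.0533, 0.0799, 0.0915 and 0.146.

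In CPM, methanol replicate C was lower than replicates A and B for most of the genes that rose. CPM are not corrected for library composition, and the TMM normalization factors of the fit were 1.026, 1.094 and 0.911 for A, B and C. At an equal normalized level, a lower factor gives a lower CPM. Its part in the counts below was not separated, and the share over all genes was not counted. Of the 534 genes called higher, 441 (82.6%) had a lower CPM in replicate C than in both A and B, and 14 had a CPM in C that did not exceed both 48 h glycerol libraries. Of the 348 called lower, 182 (52.3%) had a higher CPM in C than in A and B, and 4 did not fall below both glycerol libraries in C. The genes with the very largest increases did not follow this, since GQ67_05214, GQ67_03943, GQ67_03941 and GQ67_01599 were highest in replicate C. Without replicate C, 1055 genes were called (549 higher and 506 lower), of which 817 were shared with the 882. Without 48 h glycerol replicate B, which left the shallow library alone in that group, 626 were called.

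In mean CPM, the level before the transfer lay between the later levels for most called genes. Of the genes called higher, 288 had a mean CPM at 24 h glycerol between those of methanol and 48 h glycerol, 163 were lower at 24 h than in either later condition and 83 were higher. Of the genes called lower, 212 lay between, 106 were lower at 24 h and 30 were higher. These are positions of means and were not tested. Called genes were selected for a gap between methanol and 48 h glycerol, which by itself favours a level between them. The share over all genes was not counted, so the counts do not show that this position is particular to called genes. The CPM were also not corrected for library composition. TMM factors were 1.003 to 1.015 at 24 h glycerol, against 0.897 and 0.895 in 48 h glycerol.

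Of the 14 genes that the study names or describes, 4 were called higher in methanol and 2 lower, beside 10.5% and 6.84% of all genes tested. NIT1 (GQ67_00061, chromosome 2, 66393 to 67522), named after a yeast gene of the nitrilase family, had 1067, 1161 and 434 CPM in methanol, against 176 and 131 CPM in 48 h glycerol. Replicate C was the lowest in methanol, and the groups did not overlap. The log2 fold change was 2.31 (SE 0.44, edgeR adjusted p = 3.08e-05). ZPS1 (GQ67_03591), known in S. cerevisiae as a zinc-regulated gene of a cell surface protein, had 1539, 1662 and 774 CPM in methanol, against 129 and 143 CPM in 48 h glycerol and 1.68 to 7.93 CPM at 24 h glycerol. Its log2 fold change was 3.09 (SE 0.78, edgeR adjusted p = 0.00155). YDL218W (GQ67_02654) had 589.9, 679 and 316 CPM in methanol, against 12.4 and 6.23 CPM in 48 h glycerol, a log2 fold change of 5.43 (SE 0.59, edgeR adjusted p = 2.09e-11). RSF2 (GQ67_03630, chromosome 3, 1072725 to 1074911, minus strand), a zinc finger transcription factor, had 189.7, 215 and 148 CPM in methanol, against 55.5 and 48.6 CPM in 48 h glycerol, a log2 fold change of 1.62 (SE 0.35, edgeR adjusted p = 0.000172).

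Beside PDR12, the named gene called lower was FLO11-BSC1 (GQ67_01392), related by name to cell surface adhesins that mediate flocculation. It had 306, 187 and 847 CPM in methanol, against 1419 and 1476 CPM in 48 h glycerol, a log2 fold change of -1.79 (SE 0.58, edgeR adjusted p = 0.0136), and was called in 8 of 14 alternative fits. The call was lost without methanol A, methanol B, 48 h glycerol B or 48 h glycerol C, with adjusted p of 0.0729, 0.0965, 0.0621 and 0.0622. The metal uptake genes CTR1, a copper transporter, and FRE1, a metal reductase, were not called. CTR1 had 851, 888 and 659 CPM in methanol, against 1342 and 1257 CPM in 48 h glycerol (log2 fold change -0.88, edgeR adjusted p = 0.17). FRE1 had 1083, 1089.6 and 837 CPM in methanol, against 1416 and 1341 CPM in 48 h glycerol (log2 fold change -0.64, edgeR adjusted p = 0.331). GQ67_02041, which the study describes as a cell wall gene, had 211, 214 and 151 CPM in methanol, against 71.1 and 88.5 CPM in 48 h glycerol (log2 fold change 1.11, edgeR adjusted p = 0.116). YFL040W, SMC3 of the cohesin complex, the transcription factor gene SEF1 and the helicase gene RVB1 had log2 fold changes of -0.52, 0.99, 0.21 and -0.69, and none of these 4 genes was called.

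HIS4, the gene whose defect makes GS115 an auxotroph, responded to methanol differently in GS115 than in the mean of the other strains. It was assigned to GQ67_02025 (chromosome 1, 1702000 to 1704531, plus strand, 843 codons), because the changed position that the study lists falls in the codon of that gene that the study names. In GS115 it had 1422, 1358 and 1168 CPM in methanol, against 1575 and 1569 CPM in 48 h glycerol. The log2 fold change was -0.43 (SE 0.42, edgeR adjusted p = 0.468). In each of the 9 other strains HIS4 was called lower in methanol, with log2 fold changes from -3.36 in YB-4289 to -1.38 in Y-17741. Genes called lower made up 7.63% of all genes in Y-11430, 8.98% in Y-12729, 9.65% in Y-48124, 14.5% in YB-378, 19.1% in YB-4290, 19.3% in YB-4289, 19.6% in Y-7556, 19.8% in Y-17741 and 20.3% in X-33. The test of the difference between the GS115 response and the mean response of the 9 strains gave a log2 difference of 1.77 (SE 0.47, edgeR adjusted p = 0.00219). Of the single strains, Y-11430 and Y-48124 were tested, and neither difference passed the threshold. It was 1.05 (SE 0.54, edgeR adjusted p = 0.245) against Y-11430, where HIS4 averaged 277 CPM in methanol and 874 CPM in 48 h glycerol. It was 1.11 (SE 0.58, edgeR adjusted p = 0.225) against Y-48124, which shares the mutations of GS115 but has a different change at the same HIS4 codon, and where HIS4 averaged 189.7 CPM in methanol and 567 CPM in 48 h glycerol. X-33, reported to descend from GS115 and also carrying that different change, had 76.8, 65 and 296 CPM in methanol, against a mean of 588 CPM in 48 h glycerol. The highest of these methanol values came from replicate C, which held only 70901 counts, and the X-33 methanol mean was 146 CPM with it and 70.9 CPM without it. Without the libraries of other strains under 1000000 counts, that one included, the HIS4 difference from the mean of 9 strains was 1.80 (edgeR adjusted p = 0.00154).

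**Figure D3:**
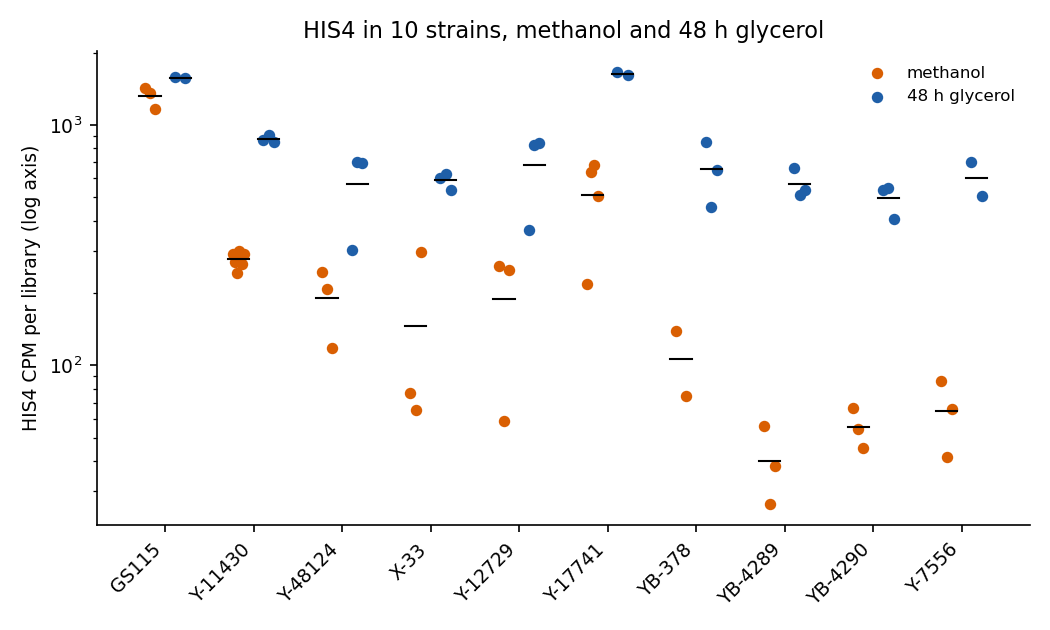
HIS4 level in each library of GS115 and 9 other strains, in CPM on a log axis, with methanol (orange) left of 48 h glycerol (blue) and a black bar at each mean. The GS115 methanol libraries, at 1168 to 1422 CPM, sit close to the GS115 48 h glycerol libraries, while in the other strains the methanol mean lies below the 48 h glycerol mean.

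The response of GS115 was then set against that of other strains by testing the difference between responses. The mean over 9 strains, all except Y-48123, which had a single library at 48 h glycerol, gave 1177 genes with a different response (23.1% of the genes tested), of which 654 (12.9%) had a higher and 523 (10.3%) a lower log2 fold change in GS115. Against Y-11430, the strain from which GS115 was made, 290 genes differed (5.7%), 165 higher (3.24%) and 125 lower (2.46%). Against Y-48124, 395 genes differed (7.76%), 218 higher (4.29%) and 177 lower (3.48%). The 3 differences share the GS115 libraries and are not independent of each other. The single-strain counts depended on individual libraries. Without GS115 48 h glycerol B or C, or without GS115 methanol A, B or C, the count against Y-11430 was 131, 171, 180, 151 and 493, and that against Y-48124 was 155, 178, 209, 169 and 671. Without Y-48124 methanol C or Y-48124 48 h glycerol D, the count against Y-48124 was 169 and 256. With size factors from median ratios in place of TMM, 218 of 304 genes were higher in GS115 than in Y-11430. In a fit of the GS115 and Y-48124 libraries alone, edgeR called 0 genes, with 694 at an unadjusted p under 0.05, whereas the full fit with DESeq2 called 491.

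Across all 5087 genes the GS115 log2 fold changes had a Pearson correlation of 0.689 with those of Y-11430, 0.613 with Y-12729, 0.597 with Y-48124 and 0.231 to 0.388 with the remaining 6 strains, X-33 among them at 0.388. These values describe genes and are not replicates of a condition. No library was shared between GS115 and another strain. Of the 534 genes higher in GS115, 240 (44.9%) were also called higher in Y-11430, which is 39.0% of the 615 genes called higher there, against 12.1% of all genes called higher in Y-11430. Of the 348 genes lower in GS115, 177 (50.9%) were also called lower in Y-11430, which is 45.6% of the 388 called lower there, against a background of 7.63%. Calls in opposite directions numbered 4 and 1 between these strains. In all of the 9 strains, 73 of the GS115 genes were called higher and 79 lower, while 152 and 63 were called in the GS115 direction in none of them. The shares of all genes called in all 9 strains or in none were not counted. These counts therefore do not show that any of these genes are particular to GS115. Genes called higher made up 10.1% of all genes in Y-48124, 12.9% in Y-12729, 16.6% in YB-378, 18.3% in YB-4290, 18.8% in Y-7556 and in YB-4289, 19.1% in Y-17741 and 20% in X-33.

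Of the 10 genes with the largest increases in GS115, 0 had a called difference in response from Y-11430 and 0 from Y-48124. Over all genes these shares were 5.7% and 7.76%, so counts of 0 in 10 do not set these genes apart. GQ67_05214, for example, had a log2 fold change of 7.95 in GS115, against 8.58 in Y-11430 and 7.65 in Y-48124. The differences for these genes had standard errors of 0.90 to 2.41 log2 units. The 10 genes were picked by their size in GS115, which favours a larger value there, so no count of them is given against the mean of 9 strains. For GQ67_03943 the log2 fold change was 8.08 in GS115 and 6.25 to 7.86 in X-33, Y-12729, Y-48124 and Y-11430. It was only 1.76 to 3.45 in Y-17741, YB-378, YB-4289, YB-4290 and Y-7556. The study reports weak expression of methanol pathway genes in Y-17741, YB-378, YB-4289 and Y-7556. The GQ67_03943 difference between GS115 and the mean of the 9 strains was 3.45 (SE 1.17, edgeR adjusted p = 0.0163). Without GS115 48 h glycerol B or C, that difference was 3.48 and 3.42, with adjusted p of 0.119 and 0.101. GQ67_01215 went the other way. It rose by a log2 of 1.64 in GS115, against 3.60 in Y-11430, a difference of -1.96 (SE 0.40, edgeR adjusted p = 0.000644).

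The 12 genes that lay farthest from the mean of 9 strains and outside their range were chosen on these responses, with Y-11430 and Y-48124 among the strains, so the direction of their differences was fixed by the choice and their values are a description. GQ67_02029, of 157 codons on chromosome 1 (1698630 to 1699103, plus strand), lies 2896 bases from HIS4. It had 116, 123 and 45.6 CPM in methanol, against 24.6 and 23.7 CPM in 48 h glycerol, a log2 fold change of 1.77 (SE 0.41, edgeR adjusted p = 0.000565). In the 9 strains it was lower in methanol, with log2 fold changes of -2.93 to -1.37. The difference was 3.67 from their mean (SE 0.45, edgeR adjusted p = 2.71e-09), 3.19 from Y-11430 (SE 0.51, edgeR adjusted p = 1.47e-05) and 3.33 from Y-48124 (SE 0.56, edgeR adjusted p = 4.54e-05).

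GQ67_04563, of 706 codons on chromosome 4, had 638, 719 and 61.6 CPM in methanol, against 146 and 103 CPM in 48 h glycerol. Methanol replicate C lay below both glycerol libraries, so the groups overlapped. The rise in GS115 was at the limit of the test (log2 fold change 1.67, SE 0.67, edgeR adjusted p = 0.0497) and was called in 4 of 14 alternative fits. It was lost without methanol A, methanol B, 48 h glycerol B or 48 h glycerol C, with adjusted p of 0.152, 0.199, 0.155 and 0.243. All of the 9 other strains had lower levels in methanol, with log2 fold changes of -6.41 to -2.36, and the difference from Y-11430 was 5.98 (SE 0.91, edgeR adjusted p = 9.67e-06). GQ67_01364, of 205 codons, lies 938 bases from GQ67_01363, one of the genes that fell most. It had 179, 203 and 1.03 CPM in methanol, against 3 and 0 CPM in 48 h glycerol, so its increase was confined to methanol replicates A and B. In the other strains its log2 fold changes were -6.76 to -0.92, and the difference from their mean was 8.96 (SE 1.01, edgeR adjusted p = 2.18e-10). The size of this difference rests on a few counts in 48 h glycerol. It was 15.34 without 48 h glycerol B, where only the library at 0 was left, and 8.52 to 9.48 without any other single GS115 library, and in a fit of the 5 libraries alone the rise within GS115 was not called (log2 fold change 5.35, adjusted p = 0.0901).

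The genes that were lower in GS115 included several with positive log2 fold changes in other strains. GQ67_02736, which fell by 4.39 on the log2 scale in GS115, had log2 fold changes of -1.07 in Y-11430 and 2.28 in Y-48124 and reached 8.19 among the 9 strains. The difference was -8.41 from their mean (SE 1.25, edgeR adjusted p = 2.72e-07), -6.67 from Y-48124 (SE 1.40, edgeR adjusted p = 0.000873) and -3.31 from Y-11430 (SE 1.27, edgeR adjusted p = 0.0963). GQ67_00926, of 122 codons on chromosome 2, had 7.76, 5.43 and 18.8 CPM in methanol, against 261 and 224 CPM in 48 h glycerol. Its log2 fold change was -4.64 in GS115, -2.35 in Y-11430, 1.47 in Y-48124 and 5.95 in X-33, and the difference from the mean of 9 strains was -9.11 (SE 1.34, edgeR adjusted p = 2.18e-07). GQ67_02419 was not called in GS115 (log2 fold change -0.84, edgeR adjusted p = 0.393) and had log2 fold changes of 1.98 to 12.18 in the 9 strains. GQ67_02229, GQ67_03410 and GQ67_04692 differed from the mean of the 9 strains by -6.45, -5.98 and -5.78. Of these 6 genes, GQ67_02229 lost its call in GS115 itself without methanol A, methanol B, 48 h glycerol B or 48 h glycerol C, with adjusted p of 0.116, 0.124, 0.126 and 0.0567.

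**Figure D4:**
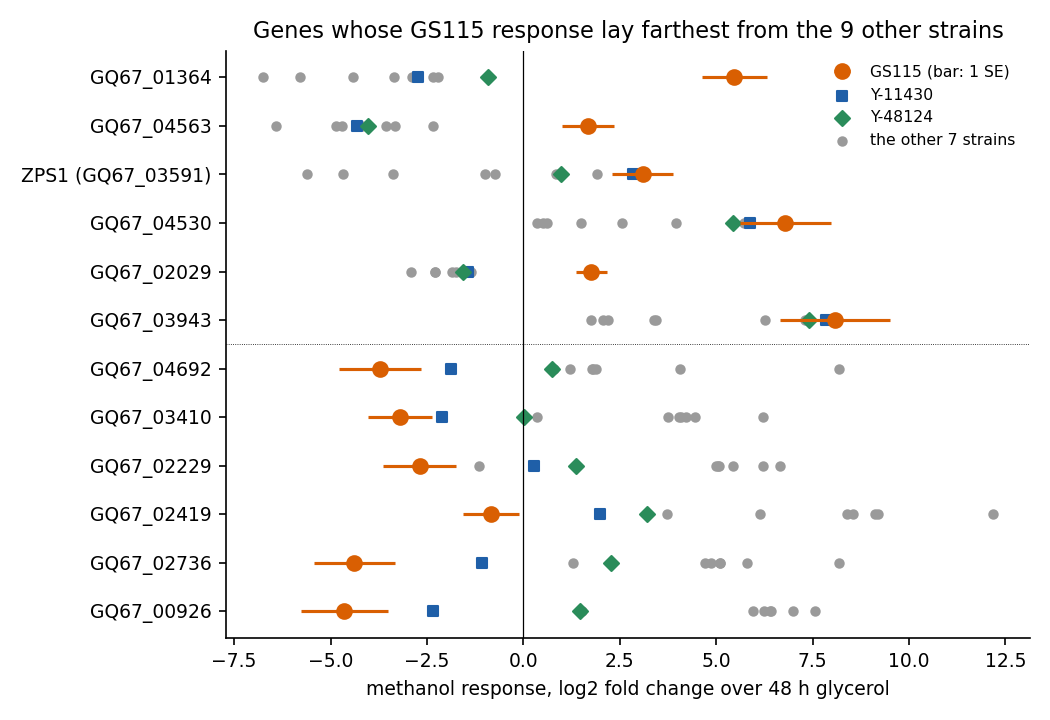
Methanol response, as log2 fold change over 48 h glycerol, of the 12 genes farthest from the mean of 9 strains, with GS115 in orange (bars are 1 SE), Y-11430 as blue squares, Y-48124 as green diamonds and the other 7 strains in grey. In the upper block GS115 lies to the right of the other strains, by a wide gap for GQ67_01364, GQ67_04563 and GQ67_02029 and a narrow one for ZPS1, GQ67_04530 and GQ67_03943; in the lower block it lies to their left.

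Named genes differed from the 9 strains in both directions. Beside HIS4, the response was higher in GS115 for ZPS1 by 4.08 (SE 0.86, edgeR adjusted p = 0.000148), NIT1 by 2.04 (SE 0.46, edgeR adjusted p = 0.000339) and RSF2 by 1.52 (SE 0.36, edgeR adjusted p = 0.000593). It was lower for YFL040W, PDR12 and YDL218W, with differences of -5.64, -1.59 and -1.63. YDL218W rose in GS115, but by less than the mean of the other strains, and its difference was no longer called without 48 h glycerol B (-0.86, adjusted p = 0.642), without methanol C (-1.48, adjusted p = 0.0509) or with the share of TPM outside the listed genes as a covariate (-0.97, adjusted p = 0.158). That of PDR12 was no longer called without 48 h glycerol B (-1.54, adjusted p = 0.0582) or without methanol B (-1.32, adjusted p = 0.0647). None of the 7 genes differed from Y-11430 or from Y-48124 past the threshold.

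The study lists 10 genes with positive and 10 with negative weights on a component that separated GS115 from other strains at 24 h glycerol. The lists were read from page images and were chosen on libraries of this series, so their direction in GS115 is not independent evidence. Of the 10 positive genes, 4 were called higher and 1 lower in methanol (median log2 fold change 0.91), and of the 10 negative genes, 1 was called higher and 6 lower (median -1.78), beside 10.5% higher and 6.84% lower over all genes and a median of 0.13. The median difference from the mean response of the 9 strains was -0.57 for the positive and 0.50 for the negative genes, beside 0.18 over all genes. These directions are thus not shown to be particular to GS115. The negative genes were mostly at their highest in 48 h glycerol. GQ67_02712, of 266 codons on chromosome 1, had 583, 493 and 1321 CPM in methanol, against 6028 and 5439 CPM in 48 h glycerol and 14.5 to 19.3 CPM at 24 h glycerol, and its log2 fold change was -2.96 (SE 0.72, edgeR adjusted p = 0.000994). GQ67_03787 had 52.9, 48.3 and 99.7 CPM in methanol, against 453 and 401 CPM in 48 h glycerol and 3.05 to 5.19 CPM at 24 h glycerol. The fall of GQ67_02964 (log2 fold change -1.63, edgeR adjusted p = 0.0421) was called in 8 of 14 alternative fits and was lost without methanol A, methanol B, 48 h glycerol B or 48 h glycerol C, with adjusted p of 0.102, 0.116, 0.182 and 0.0937. ZPS1 was the negative gene called higher. Among the positive genes, GQ67_05114 was highest at 24 h glycerol, at 978 to 2230.5 CPM, and had 192, 175 and 23.4 CPM in methanol against 38.7 and 38.6 CPM in 48 h glycerol. Its methanol replicate C lay below both glycerol libraries, and its call (log2 fold change 1.53, edgeR adjusted p = 0.00101) was lost in the fits of the 8 and of the 5 GS115 libraries alone, with adjusted p of 0.158 and 0.205. The positive gene GQ67_05174 (log2 fold change 1.45, edgeR adjusted p = 0.00374) was no longer called without 48 h glycerol B (1.37, adjusted p = 0.0693).

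Shares of calls by gene position and structure are given beside the 10.5% higher and 6.84% lower over all genes, with no test. Of 65 genes within 25 kb of a chromosome end, 7 were called higher and 4 lower (10.8% and 6.15%). Of 209 genes with 2 exons, 17 were higher and 11 lower (8.13% and 5.26%), and of 29 with 3 or more exons, 2 were higher and 2 lower (6.9% each). Among 1063 head-to-head neighbours with at most 500 bases between their starts, both genes were called higher in 28 pairs (2.63%), both lower in 4 (0.376%) and in opposite directions in 4 (0.376%). Over all 5051 neighbouring pairs these numbers were 84 (1.66%), 38 (0.752%) and 59 (1.17%).

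The 7 genes of the linear plasmid contig were at low levels in GS115 in all conditions. Their summed level was 10.2, 22.4 and 13.9 CPM in methanol, against 16.2 and 17.4 CPM in 48 h glycerol and 12.4 to 27.6 CPM at 24 h glycerol. The Wilson 95% intervals of single libraries, which cover counting error only, ran from 7.54 to 26.7 CPM in methanol and from 10.4 to 29.3 CPM in 48 h glycerol. The groups overlapped, and the methanol mean was 0.923 times the 48 h glycerol mean. None of the 7 genes was called.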

How the data were processed

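RNA was sequenced as 40-nucleotide paired-end reads. The authors aligned reads with STAR 2.5.3a, quantified genes with RSEM 1.3.0 and deposited a table of expected counts, not normalized, and a table of log2(TPM + 1) values. In the deposited expected counts, 100% of values were whole numbers. The tables held 5116 of 5167 annotated features.

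Samples were grouped by the strain and condition in the labels. Counts were fitted with edgeR 4.0.16 (R 4.3.3) over all libraries of the study, with TMM normalization, filterByExpr, a mean per strain and condition and a robust two-sided quasi-likelihood test, since 2 libraries at 48 h glycerol give little estimate of spread on their own. CPM are counts per 1000000 of the library total. On simulated data of 5080 genes for the GS115 comparison, the fit called 87 of 100 genes changed by a log2 of 1.5, 96 of 100 changed by 2 and 5 of 4880 unchanged genes. The simulated libraries were independent, with the spread that the same fit had estimated, and changes were placed only in genes above a minimum level. No simulated library stood apart as methanol replicate C did, so these numbers do not give the error rates of the real comparison.

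Alternatives were DESeq2 1.42.0, limma 3.58.1 on the deposited log2 values, other normalization, filters and sample sets, and omission of single libraries. The named genes were the 10 largest called increases and decreases (non-overlapping libraries, at least 50 CPM in the higher group), the 5 largest changes in CPM each way, the genes with names in the study, and the 6 genes each way farthest from the mean response of 9 strains (called, outside their range, at least 50 CPM). Genes of the study's list that moved were given as examples after their values were seen. The comparison and the lists were chosen with earlier results of these data known. Of the identifiers, 0 matched a RefSeq gene table, and no gene sequence was used here.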

Additional observations from a re-analysis of the deposited data

Results flagged for a closer look

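The methanol response of GS115 differed from that of other strains by a test of the difference itself. It did so for 1177 genes against the mean of 9 strains, 290 against Y-11430 and 395 against Y-48124. The genes farthest above the mean of the 9 strains were GQ67_01364 (8.96 on the log2 scale, and 15.34 without GS115 48 h glycerol B, where only a library at 0 was left), GQ67_04563 (5.87), ZPS1 (GQ67_03591, 4.08), GQ67_04530 (3.85, and 3.42 with edgeR adjusted p = 0.144 without GS115 48 h glycerol B), GQ67_02029 (3.67) and GQ67_03943 (3.45). The genes farthest below it were GQ67_00926 (-9.11), GQ67_02736 (-8.41), GQ67_02419 (-7.78), GQ67_02229 (-6.45), GQ67_03410 (-5.98) and GQ67_04692 (-5.78). Other named genes with a called difference were NIT1 (2.04), HIS4 (1.77), RSF2 (1.52), PDR12 (-1.59), YDL218W (-1.63, and -0.97 with edgeR adjusted p = 0.158 when the share of TPM outside the listed genes was a covariate) and YFL040W (-5.64). The 12 genes farthest from the mean were chosen to lie outside the range of all 9 strains, Y-11430 and Y-48124 included. The direction of their differences from these 2 strains was thus fixed by the choice, and the counts that follow are a description. Of the 12 genes, 4 also had a called difference from Y-11430 and 9 from Y-48124, beside 5.7% and 7.76% of all genes. GQ67_03943, GQ67_04530, ZPS1 and the other named genes listed here had neither. The 9 strains differed widely among themselves for several of the listed genes, for example from -1.27 to 10.82 in log2 fold change for YFL040W. For GQ67_03943 the values were 1.76 to 3.45 in Y-17741, YB-378, YB-4289, YB-4290 and Y-7556, and 6.25 to 7.86 in the others. The part of methanol replicate C, the library that stood apart, was measured by leaving it out, which gave 1278 genes against the 9 strains. Groups of 2 and 3 libraries are too small for a search for single outlying values.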

How the results depend on the processing

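For methanol against 48 h glycerol, leaving out a library gave 626 to 1055 genes, and the other fits with the fold minimum gave 746 to 1183, against 882. Without the fold minimum the counts were 1539 in that comparison and 1803 against the mean of 9 strains, where leave-outs gave 797 to 1278 and 1177 were called. Leave-outs gave 131 to 493 genes against Y-11430 and 155 to 671 against Y-48124. Fits to the pair of strains alone gave 436 genes against Y-11430 and 0 against Y-48124, and the cause was not tested. With the replicate letter as a block in the 8 GS115 libraries, 746 genes were called in place of 873 without the block, and the calls of GQ67_00519 (-2.55, adjusted p = 0.053), FLO11-BSC1 (GQ67_01392, -2.04, adjusted p = 0.0568) and GQ67_01364 (5.46, adjusted p = 0.067) were lost with it alone among these fits of 8 libraries. The labels do not say whether the letters pair the libraries. Deviations from the group means correlated at 0.0836 for B and 0.0681 for C over 4722 genes. With only B and C in 48 h glycerol, their deviations there mirror each other, so these values cannot decide whether the libraries were paired. One alternative was chosen after seeing the data: leaving out the other libraries under 1000000 counts gave 873, 1218, 300 and 415 genes in the 4 comparisons. The linear plasmid ratio was 0.717 to 1.08 across leave-outs and 1.16 in TPM, within the spread of the libraries. For the 58 genes followed singly, 1380 of 1462 alternative values kept their direction and their side of the threshold, 55 lost a call, 19 gained one and 8 changed sign. The sign changes concerned results that were not called: SEF1 without GS115 methanol C (-0.10, range over leave-outs -0.10 to 0.44), GQ67_00038 in limma (0.12), and the RVB1 difference from 9 strains (-0.13 to 0.10 over leave-outs) without GS115 48 h glycerol B (-0.05), GS115 methanol C (-0.13), Y-11430 methanol A (-0.03), C (-0.03) or F (-0.03) or Y-48124 methanol C (-0.03). Among the GS115 libraries of this comparison, depth limits low genes most in 48 h glycerol C, where 3 counts are 3.74 CPM, and among other strains in X-33 methanol C, where 3 counts are 42.3 CPM.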
